A study of Mus musculus with 18 samples.

Results

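The Lin28, Hmga and Igf2bp genes form a small group of oncofetal genes, which are active in the embryo, mostly silent in adult tissue and often switched on again in tumours. The group was chosen by gene symbol and held 8 of the 53342 genes in the deposited table: Lin28a, Lin28b, Hmga1, Hmga1b, Hmga2, Igf2bp1, Igf2bp2 and Igf2bp3. It was put together with the Lin28a values of the mix and control arms of Neuro-2A cells already known. Those arms are therefore compared for the members without a test, while the other comparisons were tested. Other earlier results of these data were known too, so the p-values of the members may not be free of the choice.

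LIN28A and LIN28B are RNA-binding proteins that bind precursors of the let-7 microRNAs and block their maturation. Mature let-7 represses a set of growth genes in turn, among them both Lin28 genes, Hmga2 and the Igf2bp genes, so LIN28 and let-7 restrain each other. HMGA proteins bend AT-rich DNA and open chromatin for transcription factors, and HMGA2 is known for keeping fetal neural stem cells dividing. IGF2BP proteins bind messenger RNAs and govern their transport, stability and translation.

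The study sequenced poly(A) RNA from 18 libraries, which fell into 6 groups of 3. The mix groups received mimics, synthetic copies of mature microRNAs, of miR-140-5p, of miR-199a-3p and of miR-99b-3p in equal amounts, at 25 nM in total for 24 h with the lipid reagent Dharmafect 1. The control groups received the nematode microRNA cel-miR-67 in the same way, and no cells without a mimic were used here, so a rise under the mix and a fall under the control mimic cannot be told apart. Each treatment was given to Neuro-2A, a mouse neuroblastoma line, to primary mouse astrocytes labelled as wild type, and to BV-2, an immortalised mouse microglial line. Both lines are labelled as free of genetic modification. Neuro-2A and BV-2 are 1 line each, and each cell type had its own medium, so cell type and culture condition cannot be told apart. Whether the 3 libraries of a group came from separate cultures is not stated, so the p-values rest on a spread that may be technical.

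Total counts per library lay between 18547354 and 27890926. All 12 microglia and macrophage markers exceeded 1 TPM in every BV-2 library, where none of the 10 neuron markers did, and 8 of 10 neuron markers did so in every Neuro-2A library, where Dcx was near 0 and Rbfox3 near 1 TPM. All 10 astrocyte markers did so in every astrocyte library. The same held there for the 12 markers of microglia and macrophages, the 11 of the oligodendrocyte lineage and the 8 of ependymal cells, so the astrocyte cultures held RNA of other glial cells. Of the 10 neuron markers, 6 also exceeded 1 TPM in every astrocyte library. Among them Gap43, Map2, Stmn2 and Tubb3 had means of 99.6, 65.2, 58.1 and 55.4 TPM in the control arm, and Elavl3 and Syt1 6.07 and 1.72 TPM. TPM are counts scaled by gene length and library, to the same total in each library.

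The microRNAs act through bases 2 to 8, the seed, which pairs with matching sites in the 3′ untranslated region (UTR) of a messenger RNA. The mature sequences below come from RefSeq (GRCm38.p6), run 5′ to 3′ and carry the seed in capitals. These 2 seeds of the mix differ from that of let-7, which let-7a-5p and let-7e-5p share.
miR-199a-3p: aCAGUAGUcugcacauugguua
miR-99b-3p: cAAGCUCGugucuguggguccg
let-7a-5p: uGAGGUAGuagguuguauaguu
let-7e-5p: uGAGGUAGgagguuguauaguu

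A site was counted as an 8mer or a 7mer-m8. The 8mers were CTACCTCA for let-7, GGTTGTGA for cel-miR-67, AACCACTA for miR-140-5p, ACTACTGA for miR-199a-3p and CGAGCTTA for miR-99b-3p. A 7mer-m8 lacks the last A. Sites were sought on the transcript strand of the longest annotated 3′ UTR, and the motifs of different microRNAs were allowed to overlap. The following windows of the UTRs in mm10 are those the results return to, with the site in capitals. They are the cel-miR-67 site of Lin28a (chr4:134005602-134005631, minus strand), those of Hmga1 (chr17:27563296-27563325, plus strand) and Hmga1b (chr11:120764017-120764046, plus strand), the miR-199a-3p 8mer of Lin28b (chr10:45380047-45380076, minus strand), the first let-7 site of Hmga2 (chr10:120364210-120364239, minus strand) and the miR-140-5p site of Igf2bp3 (chr6:49085756-49085785, minus strand).
Lin28a, cel-miR-67 8mer: tagcaacgGGTTGTGAtgacaggcaaagag
Hmga1, cel-miR-67 7mer-m8: ctctggacGGTTGTGttgttttgtttttgt
Hmga1b, cel-miR-67 7mer-m8: ctctggacGGTTGTGttgttttttttttgt
Lin28b, miR-199a-3p 8mer: tcttacttACTACTGAagccttagagaaaa
Hmga2, let-7 8mer: ttcaatttCTACCTCAgcatcagttggatc
Igf2bp3, miR-140-5p 7mer-m8: cttcagaaAACCACTttgcctcattgtgtt

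All 8 members carried at least 1 let-7 site, against 9.06% of the 20879 genes with an annotated 3′ UTR, and 18 let-7 sites were found in all. The UTRs of the members are long, from 1183 nt in Hmga1 to 6337 nt in Igf2bp1, and among the 9087 genes with UTRs of at least 1183 nt 16.1% carried a let-7 site. Igf2bp1 held 3 let-7 8mers and 1 7mer-m8, and Lin28a held 2 8mers, at 909 and 1547 nt from the stop codon. Lin28b and Hmga2 each held 1 let-7 8mer and 3 7mer-m8 sites, the 8mer lying 36 nt from the stop codon in Lin28b and 58 nt in Hmga2. Several of these genes are textbook let-7 targets, so the count describes the choice of genes.

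Sites of the mix were rarer in the members than let-7 sites. Lin28b was the only member with a miR-199a-3p site, a 7mer-m8 at 95 nt and an 8mer at 997 nt, against 7.74% of all genes with a UTR. Igf2bp1 and Igf2bp3 each held 1 miR-140-5p 7mer-m8, a site class that with the 8mer occurred in 9.72% of genes. No member held a miR-99b-3p 8mer or 7mer-m8, which occurred in 1.76% of genes. Sites of the control mimic lay in Lin28a, an 8mer at 482 nt, and in Hmga1 and Hmga1b, a 7mer-m8 at 813 nt in each, against 9.45% of genes. Among genes with UTRs of at least 1183 nt the shares were 14.5% for miR-199a-3p, 17.9% for miR-140-5p, 3.36% for miR-99b-3p and 17.5% for cel-miR-67. In Hmga1 and Hmga1b the let-7 site lies 12 nt before that of cel-miR-67, at 801 nt. Of the 17 annotated Hmga1 3′ UTRs, 6 held these sites.

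**Figure D1:**
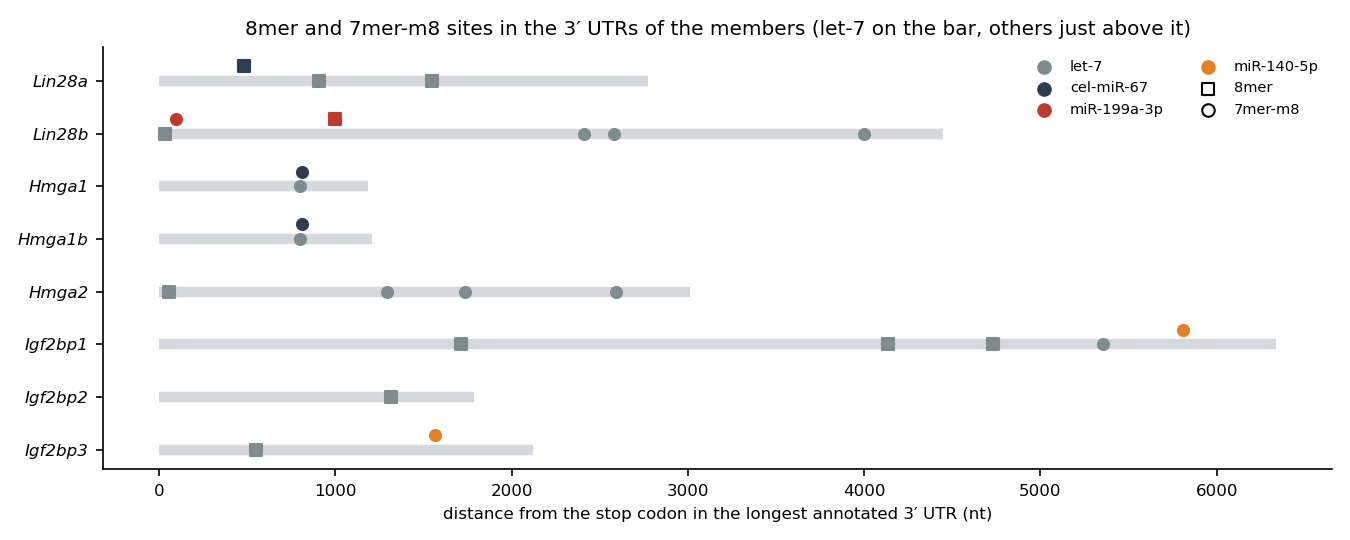
Positions of 8mer (squares) and 7mer-m8 sites (circles) in the longest annotated 3′ UTR of each of the 8 members, in nt from the stop codon. Every UTR carries a let-7 site (grey, on the bar), while cel-miR-67 sites (dark blue, above the bar) lie in Lin28a, Hmga1 and Hmga1b, miR-199a-3p sites (red) in Lin28b and miR-140-5p sites (orange) in Igf2bp1 and Igf2bp3.

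Under the control mimic, each cell type had its own pattern of the 8 genes. Both Lin28 genes stood highest in Neuro-2A, and Hmga1, Hmga1b, Hmga2, Igf2bp2 and Igf2bp3 stood highest in BV-2. In each of these comparisons 86.9% (astrocytes against BV-2), 87.3% (Neuro-2A against astrocytes) and 79% (Neuro-2A against BV-2) of the 20308 genes tested were called by edgeR's quasi-likelihood test at an adjusted p under 0.05. A call between cell types is thus the usual outcome for any gene, and the size of the difference is what the members' values add.

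Lin28a (ENSMUSG00000050966, chr4:134003330-134018841) recruits an enzyme that adds uridines to let-7 precursors. It had 64.2, 59.5 and 59.9 TPM in the Neuro-2A control libraries. No astrocyte library of either arm held a single count, and in BV-2 control libraries 1, 1 and 0 counts were found. Summed over the group, Lin28a was at least 2122-fold higher in Neuro-2A than in astrocytes, in CPM, counts scaled by the library total, against a floor of 3 counts over the 3 astrocyte control libraries. Lin28b (ENSMUSG00000063804, chr10:45376620-45486395), its paralog, had 24.7, 21.03 and 20.1 TPM in the Neuro-2A control libraries, 0.016, 0 and 0 TPM in astrocytes, where 1 count was found, and 1.51, 1.68 and 2.39 TPM in BV-2. The Neuro-2A level was 11.8 times that of BV-2 in mean TPM, and edgeR gave a log2 difference of 3.41 ± 0.13 (SE, n = 3 each, adjusted p = 7.70e-15).

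Hmga1 (ENSMUSG00000046711, chr17:27556620-27563674), the widely expressed HMGA gene of dividing cells, had 71.0, 80.0 and 82.1 TPM in Neuro-2A, 103, 107 and 106 TPM in astrocytes and 775, 781 and 755 TPM in BV-2 control libraries. Its mean was 7.29 times higher in BV-2 than in astrocytes, and the 2 lower cell types also differed (Neuro-2A against astrocytes, log2 difference −0.55 ± 0.061 SE, edgeR adjusted p = 5.73e-08). Hmga1b (ENSMUSG00000078249, chr11:120762794-120764419), an intronless copy of Hmga1 annotated as protein coding, ran in the opposite order at the low end, with 97.7 ± 8.76 TPM in Neuro-2A, 70.1 ± 1.06 in astrocytes and 531 ± 20.1 in BV-2 (SD, n = 3). Hmga2 (ENSMUSG00000056758, chr10:120361275-120476469) separated the cell types most sharply within the HMGA genes. It had 0.2 to 1 expected counts per Neuro-2A control library, 1.96, 2.07 and 2.11 TPM in astrocytes and 53.4, 51.4 and 57.2 TPM in BV-2, and astrocytes differed from BV-2 by −4.78 ± 0.097 on the log2 scale (SE, edgeR adjusted p = 1.91e-19).

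Among the IGF2BP genes, Igf2bp1 (ENSMUSG00000013415, chr11:95957163-96005940), which anchors beta-actin mRNA in neurites and fibroblasts, was close to absent. It had 7, 11 and 10.25 expected counts in the astrocyte control libraries, 1, 0 and 0 in Neuro-2A and none in BV-2, and did not pass the filter on low counts. Without that filter edgeR called the astrocytes different from BV-2 (adjusted p = 1.01e-06) and from Neuro-2A (adjusted p = 4.31e-06), on these few counts. Igf2bp2 (ENSMUSG00000033581, chr16:22059009-22163299), which is linked to metabolism and also found in adult tissue, had 1.07, 1.08 and 1.11 TPM in Neuro-2A, 16.1, 16.7 and 16.2 TPM in astrocytes and 99.7, 92.4 and 98.9 TPM in BV-2. Each neighbour in that order differed (edgeR adjusted p = 1.58e-20 for Neuro-2A against astrocytes and 2.78e-20 for astrocytes against BV-2). Igf2bp3 (ENSMUSG00000029814, chr6:49085223-49214957), a fetal protein found again in many tumours, had 14.6, 11.7 and 12.7 TPM in Neuro-2A, 1.88, 2.05 and 2.10 TPM in astrocytes and 35.01, 33.2 and 35.4 TPM in BV-2. Its astrocyte level was the lowest of the 3 cell types, and Neuro-2A differed from BV-2 by −1.57 ± 0.063 on the log2 scale (SE, edgeR adjusted p = 8.85e-15).

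**Figure D2:**
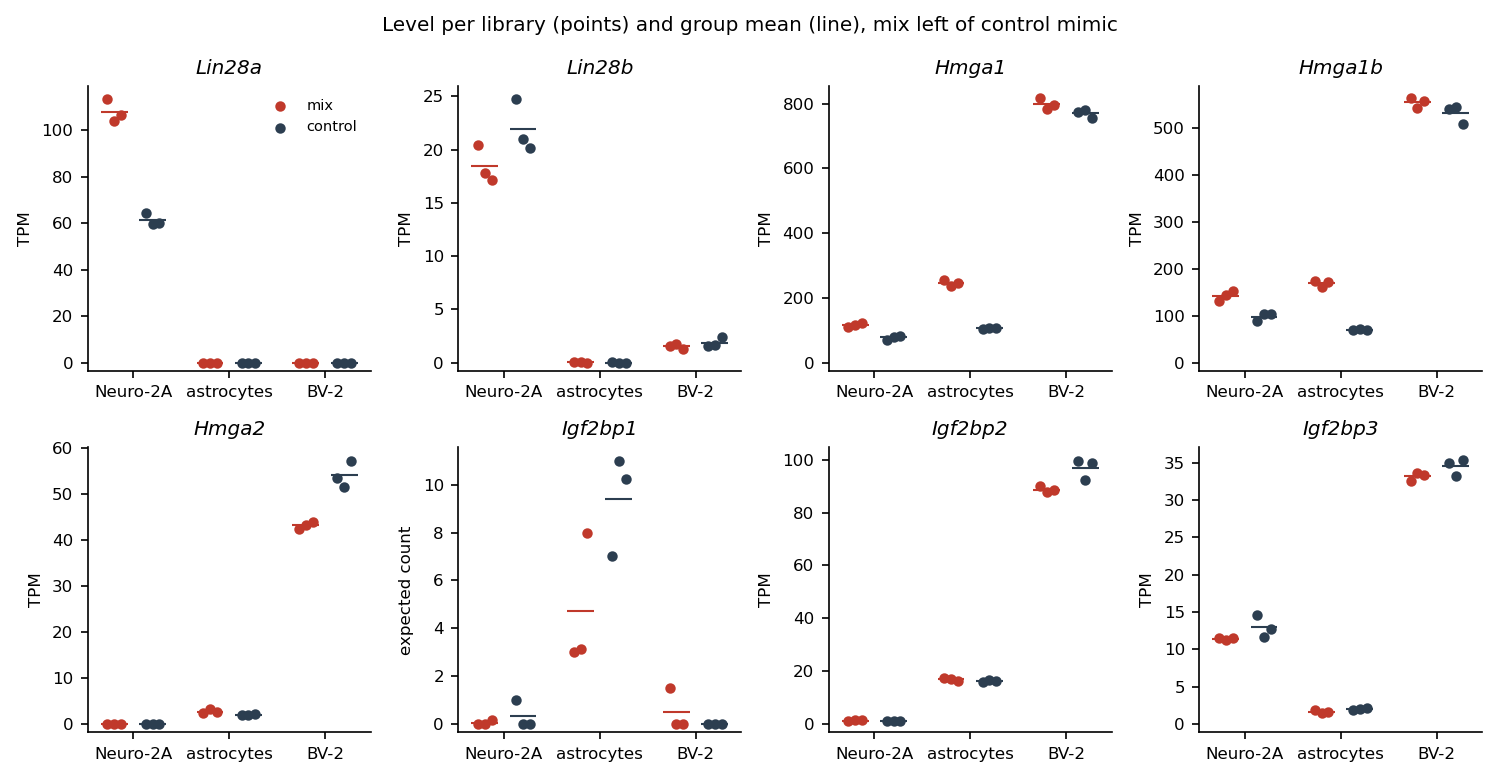
Level of each member in every library (points) with the group mean (line), mix left of control mimic in each cell type, in TPM and for Igf2bp1 in expected counts, with a linear axis of its own in each panel. Lin28a is at or near 0 outside Neuro-2A, where it lies at 104 to 113 TPM in the mix arm and 59.5 to 64.2 TPM in the control arm, and Hmga1 and Hmga1b are higher in the mix arm of astrocytes.

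In Neuro-2A, Lin28a, Hmga1 and Hmga1b stood higher in the mix arm. Lin28a had 113, 104 and 106 TPM in the mix libraries, against 64.2, 59.5 and 59.9 TPM in the control libraries. The groups lay far apart, and the fitted ratio was 1.78-fold (log2 fold change 0.84 ± 0.056 SE, n = 3 each). Hmga1 had 109.7, 116 and 122 TPM in the mix libraries, against 71.0, 80.0 and 82.1 TPM in the control libraries (log2 fold change 0.59 ± 0.073 SE). Hmga1b had 131, 143 and 153 TPM, against 87.6, 102.6 and 103 TPM (0.56 ± 0.085 SE). For both genes the lowest mix library lay above the highest control library.

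The other members moved less in Neuro-2A. Lin28b, which carries the miR-199a-3p sites, had 20.5, 17.8 and 17.2 TPM in the mix libraries, against 24.7, 21.03 and 20.1 TPM in the control libraries. As groups these overlapped, at a log2 fold change of −0.23 ± 0.097 (SE). Within each of the 3 same-numbered pairs the mix library was lower, and the SE was 0.040 with the replicate block. The pairing of libraries 2 and 3 is less certain, and no test is read from the pairs. The Lin28 paralogs thus stood on different sides of their controls. Igf2bp3, with its miR-140-5p site, had 11.53, 11.3 and 11.49 TPM, against 14.6, 11.7 and 12.7 TPM (−0.17 ± 0.085 SE, and ± 0.057 with the block). Its groups did not overlap, so the mix library is lower in any pairing. Igf2bp2 was scarce, with 1.22, 1.45 and 1.38 TPM in the mix libraries, against 1.07, 1.08 and 1.11 TPM in the control libraries (0.32 ± 0.13 SE). Hmga2 had 2, 1 and 0 counts in the mix libraries and at most 1 in the control libraries, and Igf2bp1 stayed at 1 count or fewer, so neither could be compared. Of the 6 members that passed the filter on low counts, 5 had groups without overlap in TPM, where 33.3% of the 16160 genes tested did. The contrast chose the members, and nothing is read from that count. The neuron markers summed to 1018 to 1134 TPM in the mix libraries, against 1237 to 1529 TPM in the control libraries, and their part in these values was not tested.

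In astrocytes, Hmga1 and Hmga1b rose over 2-fold under the mix. Hmga1 had 256, 236 and 246 TPM in the mix libraries, against 103, 107 and 106 TPM in the control libraries. It rose 2.23-fold (log2 fold change 1.16 ± 0.038 SE, n = 3 each, edgeR adjusted p = 6.37e-10). Hmga1b had 174, 161 and 173 TPM, against 70.6, 70.8 and 68.9 TPM, and rose 2.31-fold (1.21 ± 0.043 SE, edgeR adjusted p = 1.14e-09). The groups were widely separated for both genes, and both calls held in every alternative fit, with log2 fold changes from 1.13 to 1.22 for Hmga1 and from 1.19 to 1.27 for Hmga1b.

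Hmga2, the let-7 target, was low in astrocytes, with 2.33, 3.24 and 2.57 TPM in the mix libraries, against 1.96, 2.07 and 2.11 TPM in the control libraries. It passed the threshold narrowly (log2 fold change 0.35 ± 0.12 SE, edgeR adjusted p = 0.039). Igf2bp3 fell to 1.86, 1.54 and 1.58 TPM in the mix libraries, against 1.88, 2.05 and 2.10 TPM in the control libraries (−0.34 ± 0.11 SE, edgeR adjusted p = 0.022). Both genes had 85.9 to 152 counts per astrocyte library, and neither call was firm. With DESeq2 the adjusted p was 0.12 for each, and with limma on log2(TPM + 1) 0.065 for Hmga2 and 0.057 for Igf2bp3. The Hmga2 call was lost without mix library 2 (log2 fold change 0.20, adjusted p = 0.22) and without control library 1, 2 or 3 (adjusted p = 0.11, 0.096 and 0.073). The Igf2bp3 call was lost without mix library 2 or 3 (adjusted p = 0.076 and 0.064) and without control library 2 or 3 (0.057 and 0.070).

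Igf2bp2 was alike in both arms of the astrocytes, with 17.6, 16.9 and 16.4 TPM in the mix libraries, against 16.1, 16.7 and 16.2 TPM in the control libraries. Its log2 fold change was −0.01 ± 0.044 (SE, edgeR adjusted p = 0.89), and 0.05 with limma on log2(TPM + 1). Igf2bp1 had 3, 3.14 and 8 expected counts in the mix libraries, against 7, 11 and 10.25 in the control libraries. It was tested only without the filter on low counts and was not called (log2 fold change −0.89 ± 0.43 SE, edgeR adjusted p = 0.16). Lin28a was not seen, and Lin28b had 1, 2.5 and 0 counts in the mix libraries, against 1, 0 and 0 in the control libraries.

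Of the 8 members, 5 passed the filter in astrocytes and 4 were called, 3 higher and 1 lower, where 40.2% of 17770 genes were called, 19.7% higher and 20.6% lower. The biological coefficient of variation was 3.52% in astrocytes, 8.64% in Neuro-2A and 6.92% in BV-2. On the TPM scale the median of all genes in astrocytes lay 0.057 above 0, and 66.4% of the calls were higher, against 48.9% with edgeR. The microglia and macrophage markers summed to 550 to 753 TPM in the astrocyte mix libraries, against 549 to 620 TPM in the control libraries. The astrocyte markers summed to 9478 to 9994 TPM, against 11209 to 11806 TPM. Among them Aqp4 (732 ± 71.3 TPM, against 1796 ± 92.6), Gfap (4996 ± 224 TPM, against 5591 ± 136, SD), Slc1a2, Slc1a3 and Gja1 were lower without overlap. Aldh1l1, Aldoc, S100b, Sox9 and Fabp7 overlapped between the arms. The fibroblast and pericyte markers summed to 2386 to 2824 TPM, against 3139 to 3518 TPM, with 7 of 9 above 1 TPM. The part of these cells in the members' values was not tested, and in bulk RNA fewer cells of a type and less RNA per cell cannot be told apart.

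In BV-2, where 5 of the members are most abundant, Hmga2 fell. It had 42.4, 43.3 and 43.9 TPM in the mix libraries, against 53.4, 51.4 and 57.2 TPM in the control libraries. The groups did not overlap, and the log2 fold change was −0.39 ± 0.051 (SE, n = 3 each, edgeR adjusted p = 0.0022). This call held in all 14 alternatives, at −0.41 to −0.32. Igf2bp2 fell to 89.9, 87.7 and 88.4 TPM, against 99.7, 92.4 and 98.9 TPM (−0.20 ± 0.045 SE, edgeR adjusted p = 0.028). Its call was lost with limma on log2(TPM + 1) (−0.13, adjusted p = 0.10), without mix library 1, 2 or 3 (adjusted p = 0.14, 0.16 and 0.14) and without control library 3 (0.067).

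Hmga1 and Hmga1b were not called in BV-2. Hmga1 had 818, 782 and 797 TPM in the mix libraries, against 775, 781 and 755 TPM in the control libraries. The 2 groups sat side by side without overlap, but after TMM scaling the log2 fold change was −0.02 ± 0.051 (SE, edgeR adjusted p = 0.89), which turned to 0.05 with limma on log2(TPM + 1). Hmga1b had 565, 543 and 557 TPM, against 539.7, 546 and 508 TPM (−0.01 ± 0.056 SE, adjusted p = 0.96), likewise 0.06 with limma. The median of all BV-2 genes lay 0.059 higher on the log2(TPM + 1) scale than at 0, and 67.4% of the calls were higher there, against 46.0% with edgeR. Igf2bp3 had 32.5, 33.6 and 33.3 TPM in the mix libraries, against 35.01, 33.2 and 35.4 TPM in the control libraries, which overlapped (−0.13 ± 0.048 SE, edgeR adjusted p = 0.14, and 0.049 without control library 2). Lin28b had 1.60, 1.73 and 1.27 TPM, against 1.51, 1.68 and 2.39 TPM (−0.33 ± 0.18 SE, edgeR adjusted p = 0.29). Of the 6 members that passed the filter in BV-2, 2 were called, both lower, where 10% of 14961 genes were called and 5.41% were called lower. The microglia and macrophage markers summed to 3467 to 3574 TPM in the mix libraries, against 3236 to 3600 TPM in the control libraries.

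**Figure D3:**
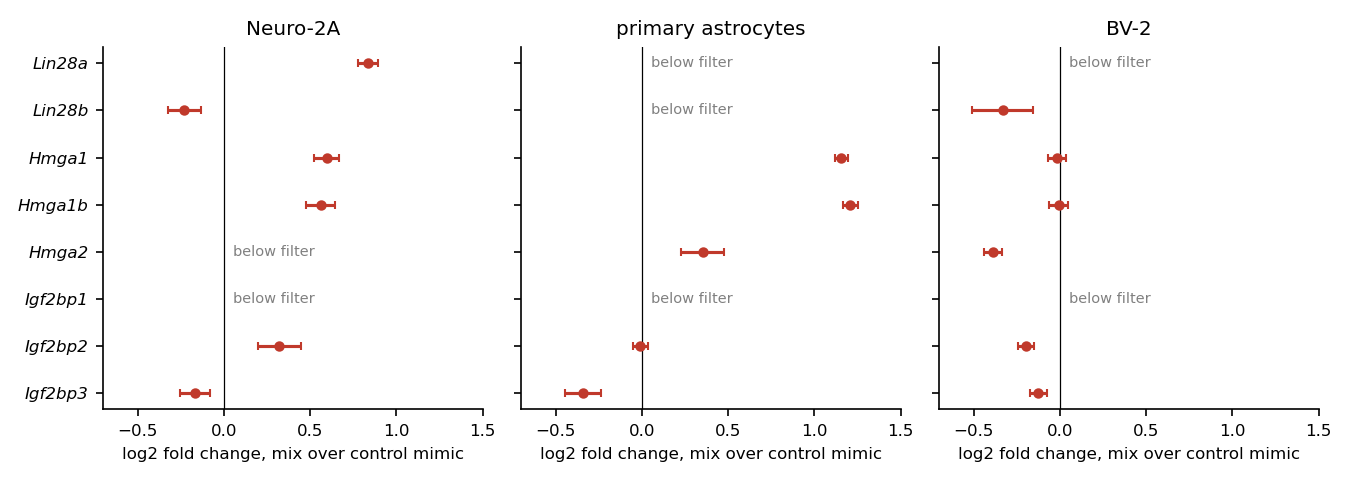
Log2 fold change of the mix over the control mimic (points, edgeR) with its SE (bars) for the members that passed the filter on low counts in each cell type, 3 libraries per arm, with the others marked as below the filter. Hmga1 and Hmga1b lie at 1.16 and 1.21 in astrocytes and at −0.02 and −0.01 in BV-2 (0.05 and 0.06 with limma on log2(TPM + 1)), and Hmga2 lies at 0.35 in astrocytes and −0.39 in BV-2.

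The mix effect was compared between astrocytes and BV-2 as a difference of log2 fold changes in an edgeR fit of all 18 libraries, in which 7.05% of 20308 genes were called, 3.55% higher. Of the members 3 were called, all higher. Hmga1 differed by 1.19 ± 0.081 (SE, adjusted p = 2.89e-07) and Hmga1b by 1.23 ± 0.096 (adjusted p = 1.34e-06), both with the larger rise in astrocytes. Hmga2 differed by 0.76 ± 0.14 (adjusted p = 0.0028), with a higher value in the mix arm of astrocytes and a lower one in that of BV-2. The 3 differences were called in every alternative. Igf2bp2 differed by 0.20 ± 0.063 (adjusted p = 0.062) and Igf2bp3 by −0.20 ± 0.12 (adjusted p = 0.40), which did not pass, while without BV-2 control library 2 Igf2bp2 did (0.21, adjusted p = 0.044). In Neuro-2A the log2 fold changes of Hmga1 and Hmga1b, 0.59 and 0.56, fell between those of the other cell types.

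Hmga1 and Hmga1b share reads, and their counts cannot be fully separated. The Hmga1b transcript, 1626 nt in 1 exon, matched an Hmga1 transcript at 1599 of 1602 aligned bases, and 89.0% of its windows of 50 nt occurred unchanged in Hmga1 transcripts. Hmga1 has up to 6 exons. Of the counts given to either gene, Hmga1b held 35.96% ± 0.41 in astrocyte mix libraries, against 35.2% ± 0.63 in astrocyte control libraries. It held 36.2% ± 0.13 in BV-2 mix and 36.03% ± 0.47 in BV-2 control libraries, but 50.05% ± 0.58 in Neuro-2A mix and 50.7% ± 0.48 in Neuro-2A control libraries (SD, n = 3 each). The share thus differed between Neuro-2A and the glial cells and hardly between the arms, and which locus the reads came from is uncertain. With the counts of both genes summed, the log2 fold change was 0.58 ± 0.077 in Neuro-2A, 1.17 ± 0.037 in astrocytes (edgeR adjusted p = 4.08e-10) and −0.01 ± 0.053 in BV-2 (adjusted p = 0.92).

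Genes with sites were set against all genes with a 3′ UTR, as a description, to place the members by the sites they carry. Genes with a cel-miR-67 8mer had a median log2 fold change of 0.092 in Neuro-2A (484 genes), 0.15 in astrocytes (534 genes) and 0.054 in BV-2 (450 genes), and medians of all genes with a UTR were 0.0017, 0.0057 and −0.0054. Of the cel-miR-67 8mer genes, 21.5% in Neuro-2A, 44.8% in astrocytes and 18.2% in BV-2 were called higher in the mix arm, against 6.05%, 22.8% and 5.51% of all genes with a UTR. Lin28a, with its 8mer, stood at 0.84 in Neuro-2A. Genes with a 7mer-m8 and no 8mer of cel-miR-67, the class of Hmga1 and Hmga1b, had medians of 0.047, 0.084 and 0.059 in Neuro-2A, astrocytes and BV-2, far under the 1.16 of Hmga1 in astrocytes and above its −0.02 in BV-2. Genes with a miR-199a-3p 8mer, the class of Lin28b, had medians of −0.21 in Neuro-2A, where Lin28b stood at −0.23, and −0.12 in BV-2, where it stood at −0.33. Genes with a miR-140-5p 7mer-m8 and no 8mer, the class of Igf2bp3, had medians of −0.11, −0.074 and −0.027, and Igf2bp3 stood at −0.17, −0.34 and −0.13. Genes with a let-7 8mer had medians of −0.014, 0.0077 and −0.012. Whether any site acts in these members was not tested.

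**Figure D4:**
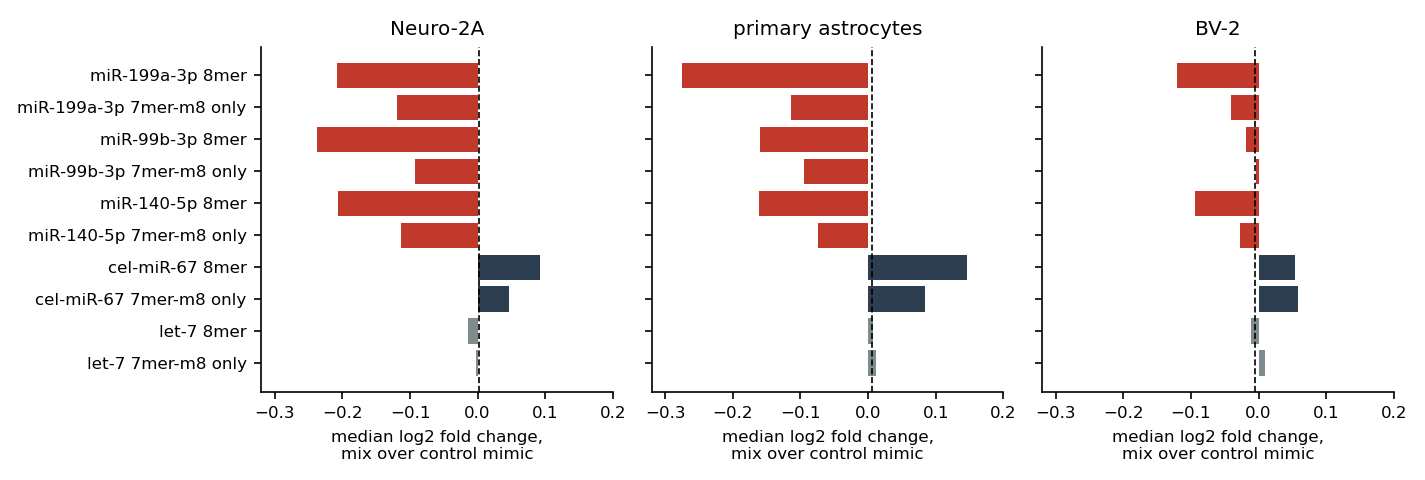
Median log2 fold change of the mix over the control mimic for genes whose 3′ UTR holds an 8mer, or a 7mer-m8 and no 8mer, of each microRNA, in the 3 cell types, with the median of all genes with a UTR as a dashed line. Medians lie left of the line for the mix microRNAs (red), except the miR-99b-3p 7mer-m8 in BV-2 at −0.0037 against −0.0054, and right of it for cel-miR-67 (dark blue, 0.092, 0.15 and 0.054 for 8mers), and those of let-7 (grey) lie near it.

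The genes around the 3 families were followed in 5 lists with 112 symbols, 10 of which are in more than 1 list. The shares of all genes called by edgeR, beside which the edgeR counts of each list stand, were 12.9% in Neuro-2A, 40.2% in astrocytes (19.7% higher and 20.6% lower) and 10% in BV-2. The DESeq2 counts stand beside 2307 of 16160 genes called by DESeq2 in Neuro-2A, 5592 of 17770 in astrocytes and 1561 of 14961 in BV-2. Among the genes of let-7 maturation, uridylation and decay, edgeR without the replicate block called 2 of 17 tested in Neuro-2A, both higher. It called 6 of 16 in astrocytes, 3 in each direction, and 2 of 16 in BV-2, 1 in each direction. These counts are near the edgeR shares. With the block, 5 higher and 7 lower were called in Neuro-2A, where 6101 of 16160 genes were. DESeq2 called 6 in Neuro-2A, 5 in astrocytes and 4 in BV-2, above its own share of all genes in Neuro-2A and BV-2. Ago2, the slicing Argonaute, rose in astrocytes (50.7 ± 2.90 TPM in the mix arm and 28.7 ± 0.656 TPM in the control arm, SD, n = 3) and in Neuro-2A (log2 fold change 0.28 ± 0.041 SE, edgeR adjusted p = 0.0052). Zcchc6, which adds uridines to let-7 precursors, fell in astrocytes (−0.30 ± 0.035 SE, adjusted p = 2.50e-05), and Khsrp, which promotes let-7 maturation, rose there (0.37 ± 0.047 SE, adjusted p = 4.20e-05). The RNA editing enzyme Adar rose in Neuro-2A (0.20 ± 0.046 SE, adjusted p = 0.026) and fell in astrocytes (−0.21 ± 0.039 SE, adjusted p = 0.00078). In BV-2, Khsrp rose (0.27, adjusted p = 0.0091) and the Dicer partner Tarbp2 fell (−0.28, adjusted p = 0.028). The medians of the list, 0.0090 in Neuro-2A, −0.015 in astrocytes and 0.037 in BV-2, lay near the medians of all genes tested, 0.0059, 0.0077 and −0.0025.

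Of other genes reported as let-7 targets, 5 of 30 tested were called in Neuro-2A, 1 higher and 4 lower. In astrocytes 19 of 32 were called, 8 higher and 11 lower, and in BV-2 3 of 29, 2 higher and 1 lower, near the 10% of all genes. DESeq2 called 8 in Neuro-2A, 16 in astrocytes and 6 in BV-2, above its own share of all genes in each. The list medians were 0.038, −0.056 and −0.039 in Neuro-2A, astrocytes and BV-2. Ccnd1, cyclin D1 of the G1 phase, rose in all 3 cell types, most in astrocytes (log2 fold change 1.06 ± 0.045 SE, edgeR adjusted p = 4.17e-09), then in Neuro-2A (0.38 ± 0.055, adjusted p = 0.0045) and BV-2 (0.20 ± 0.050, adjusted p = 0.038). Its relative Ccnd2 fell in astrocytes (−0.45 ± 0.047, adjusted p = 8.50e-06) and rose in BV-2 (0.18 ± 0.049, adjusted p = 0.046). The TGF-beta receptor gene Tgfbr1 fell in Neuro-2A (−0.44 ± 0.071, adjusted p = 0.0071). Its longest 3′ UTR held a miR-140-5p 8mer and 7mer-m8, beside a let-7 8mer and a cel-miR-67 7mer-m8. Rdh10, an enzyme of retinoic acid synthesis, fell in astrocytes (−0.33 ± 0.034, adjusted p = 7.30e-06), and the cyclin-dependent kinase gene Cdk6 fell in BV-2 (−0.25 ± 0.068, adjusted p = 0.046). Rdh10 held a let-7 7mer-m8. Ccnd1, Ccnd2 and Cdk6 held no let-7 8mer or 7mer-m8 in the longest UTR, and Cdk6 held 2 cel-miR-67 7mer-m8 sites. Whether any of these sites acts was not tested.

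Among reported IGF2BP-bound transcripts and genes of the insulin-like growth factor axis, 3 of 21 tested were called in Neuro-2A, 1 higher and 2 lower, 11 of 26 in astrocytes, 7 higher and 4 lower, and 4 of 22 in BV-2, all lower. The counts in Neuro-2A and astrocytes are near the 12.9% and 40.2% of all genes, in the fits without the replicate block. The hyaluronan receptor gene Cd44, whose mRNA IGF2BP proteins bind, fell in both glial cell types. It had 134, 139 and 131 TPM in the astrocyte mix libraries, against 228, 232 and 223 TPM in the control libraries (−0.82 ± 0.033 SE, edgeR adjusted p = 2.71e-09). In BV-2 it had 126, 129 and 132 TPM, against 205, 186 and 200.3 TPM (−0.68 ± 0.048 SE, adjusted p = 0.00011). Ptgs2, the inducible cyclooxygenase gene, fell in astrocytes (−1.09 ± 0.11, adjusted p = 4.51e-06) and in BV-2 (−0.40 ± 0.094, adjusted p = 0.030). Igf2r, which clears IGF2, rose in astrocytes (0.34 ± 0.041, adjusted p = 3.32e-05) and fell in Neuro-2A (−0.53 ± 0.14, adjusted p = 0.042). The beta-actin gene Actb fell in Neuro-2A (−0.42 ± 0.083, adjusted p = 0.016), astrocytes (−0.26 ± 0.036, adjusted p = 9.46e-05) and BV-2 (−0.27 ± 0.052, adjusted p = 0.013). The growth factor gene Igf1 fell in BV-2 (−0.43 ± 0.074, adjusted p = 0.0084), and the ubiquitin ligase gene Btrc rose in Neuro-2A (0.31 ± 0.064, adjusted p = 0.018).

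Of other high mobility group genes, which code for further chromatin proteins, 9 of 16 tested were called in astrocytes, 8 higher and 1 lower, with a median of 0.13, where 19.7% of all genes were called higher. In Neuro-2A 1 of 15 and in BV-2 2 of 13 were called, all higher, with medians of 0.060 and 0.10. DESeq2 called 2 and 4, near its own share of all genes in Neuro-2A and above it in BV-2. Hmgn1, a nucleosome-binding protein gene, rose in astrocytes (0.50 ± 0.040 SE, edgeR adjusted p = 8.14e-07) and in Neuro-2A (0.47 ± 0.10, adjusted p = 0.022). Hmgb2, a DNA-bending protein gene of dividing cells, rose in astrocytes (0.62 ± 0.049, adjusted p = 6.66e-07), as did Tox4 (0.22 ± 0.034, adjusted p = 0.00022). Hmgb3 (0.40 ± 0.090, adjusted p = 0.026) and Hmgxb3 (0.20 ± 0.053, adjusted p = 0.048) rose in BV-2, and Hmgxb3 rose in astrocytes too (0.20 ± 0.050, adjusted p = 0.0059). Of the fetal, imprinted and pluripotency genes, 4 of 18 tested were called in astrocytes, 2 in each direction, against 40.2% of all genes. There the imprinted gene Peg3 rose (0.46 ± 0.047, adjusted p = 6.74e-06). The imprinted Peg10 (−0.24 ± 0.038, adjusted p = 0.00023) and the germ cell nuclear receptor gene Nr6a1 (−0.36 ± 0.085, adjusted p = 0.0046) fell. None of 16 tested in Neuro-2A and none of 6 in BV-2 were called by edgeR without the replicate block, with 3 at an unadjusted p under 0.05 in each. With the block, 4 rose and 5 fell in Neuro-2A and 2 fell in BV-2. DESeq2 called 2 in Neuro-2A and 1 in BV-2. Trim71, an RNA-binding let-7 target of early embryos, had 31.9, 25.7 and 25.9 TPM in the Neuro-2A mix libraries, against 25.2, 21.4 and 20.97 TPM in the control libraries, and did not pass in the fit without the block (log2 fold change 0.32, adjusted p = 0.086). It passed with the replicate block (adjusted p = 2.03e-05), and in all in 4 of 14 alternatives.

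In astrocytes 14 of the 15 calls chosen by the smallest adjusted p in each list held in every alternative. Peg10 was lost in the fit of all 18 libraries (adjusted p = 0.20). The astrocyte calls of Adar, Actb and Hmgxb3 and the BV-2 call of Ptgs2 are not among those chosen. In Neuro-2A 3 of the 9 genes chosen by the same rule held in every alternative, Ccnd1 and Tgfbr1 among them, and in BV-2 1 of 10, that of Cd44. The astrocyte counts moved too. The let-7 targets had 5 higher calls, not 8, without mix library 2 or any 1 of the control libraries, and the IGF2BP list had 4, not 7, without control library 2. In these fits 5767 to 6775 genes were called, of 17943 to 17989 tested. Without mix library 1, 2 or 3 of BV-2, the lists of let-7 maturation and of let-7 targets held no call and the IGF2BP list 1, that of Cd44, and the high mobility group list held none without mix library 1 or 2 or control library 3. Without mix library 1, 2 and 3 only 434, 458 and 481 genes were called at all, of 15150, 15175 and 15129 tested. Without BV-2 control library 2, the let-7 targets had 5 higher and 6 lower calls and the high mobility group list 5 higher calls, and let-7 maturation had 2 in each direction without control library 1 or 2 and 1 without control library 3. Without control library 1, 2 of the fetal genes fell in BV-2, and likewise without control library 2. Without BV-2 control libraries 1, 2 and 3 in turn, 1812, 2985 and 913 genes were called, of 15162, 15195 and 15177 tested. The list counts in BV-2 are to be read beside these totals. In Neuro-2A the let-7 targets had 1 higher and 2 lower calls without any 1 of the mix libraries or without control library 2 or 3, and 4 and 4 without control library 1. Let-7 maturation had 3 calls there without control library 1 and 1 without any 1 of the other 5 libraries. The IGF2BP list held 1 call without control library 2 and none without mix library 2 or 3, nor did the high mobility group list without mix library 1 or 3 or control library 3. Over all genes, 2268 of 16344 were called in Neuro-2A without control library 1. Without any 1 of the other 5 libraries it was 870 to 1370, of 16344 to 16434 tested. With the replicate number as a block, which the paired Neuro-2A libraries allow, the Neuro-2A calls were 5 higher and 7 lower for let-7 maturation, 8 and 8 for let-7 targets, 2 and 7 for IGF2BP-bound transcripts, 5 and 2 for high mobility group genes and 4 and 5 for fetal genes. In that fit 6101 of 16160 genes were called, against 2083 (12.9%) without the block. All 5 lists stood above that larger share, let-7 maturation most, though no set test was run.

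**Figure D5:**
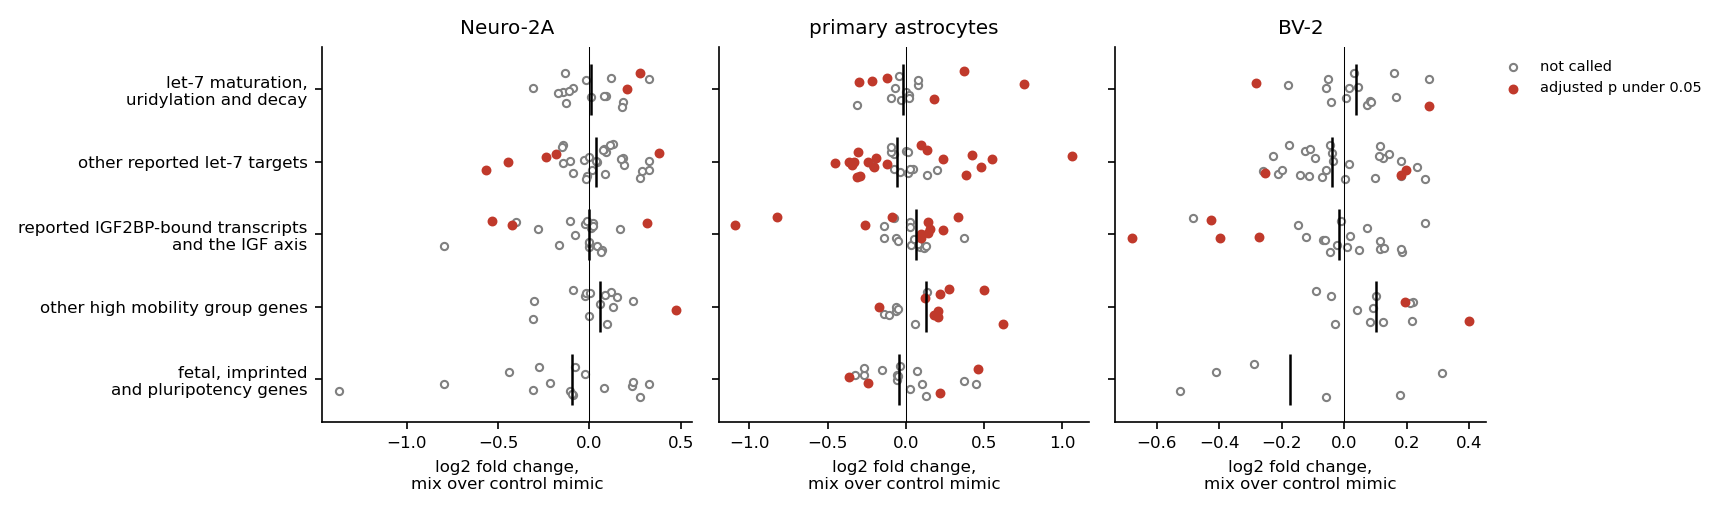
Log2 fold change of the mix over the control mimic for each tested gene of the 5 lists (points, red where the edgeR adjusted p was under 0.05) with the list median (line), in the 3 cell types, each panel with an axis of its own. The median of the high mobility group genes in astrocytes is 0.13, with 8 of 16 called higher and 1 lower, and the other medians lie between −0.17 and 0.10.

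The genes whose pattern was most like that of a member were taken by Pearson's r of log2(TPM + 1) over the 18 libraries, 6 from each cell type, among 13161 protein-coding genes with at least 5 TPM in a group. The value is a description over libraries that share cell type and arm. Lin28a was most like Rhox1, Trim71 and Hoxc10 (r = 0.999 each), which had 39.6, 22.5 and 63.6 TPM in Neuro-2A control libraries and at most 0.018 TPM in the other control groups. Lin28b was most like Nap1l1, Racgap1 and Aars (r = 0.997, 0.997 and 0.996). Hmga1 was most like Arhgef7, Asph and Tmem70 (0.991, 0.987 and 0.987), and Hmga1b like Mapk6, Dera and Psmd4 (0.984, 0.982 and 0.981). Hmga2 was most like Snx1, Tnfrsf11a and Tlr13 (0.998 each), and Igf2bp2 like Cd53, Tnfrsf1b and Fcer1g (0.999 each). Igf2bp3 was most like Baz1a, Aim2 and Wdr3 (0.997 each).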

How the data were processed

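The members and gene lists were chosen with earlier results of these data known. The submitters' processing notes name Trimmomatic 0.39, STAR 2.7.10b and mm10. The counting tool is not given in the sources used here, and neither is the annotation release. The authors deposited expected counts per gene, of which 35.7% to 42.4% per library were not whole, and log2 TPM with every TPM of 1 or less set to 0. Such TPM were recomputed here from the counts and the gene length that the deposited values imply. Igf2bp1 had no such length.

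Counts were rounded and tested in edgeR 4.0.16 (R 4.3.3) with TMM scaling, filterByExpr (minimum count 10), the quasi-likelihood test, two-sided, and Benjamini-Hochberg adjustment over all genes tested, at a threshold of 0.05. Mix and control libraries were fitted within each cell type. Comparisons between cell types used 1 fit of all 18 libraries. The SE was derived from the log2 fold change and its test statistic. DESeq2 1.42.0 and limma 3.58.1 on log2(TPM + 1) and log2(TPM + 0.1) were among the alternatives. The scripts were tested on simulated data with 200 changed genes. The simulated libraries were unpaired, and those of BV-2 had a spread below its own coefficient of variation of 6.92%. They therefore check the code and not the rate of false calls in BV-2. Depth, 18547354 to 27890926 counts per library, limits the precision of genes with few counts, and floors of 3 counts cover counting error only.

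The labels number the libraries 1 to 3 in each arm, and a further number in their descriptions matches the same libraries between arms. What that number marks is not stated. Deviations from the group means correlated between same-numbered Neuro-2A libraries (r = 0.587, 0.395 and 0.262, all over 0.1), so those numbers were taken to pair them. Mix library 2 also correlated with control library 3 (0.245) and mix library 3 with control library 2 (0.169). The pairing of libraries 2 and 3 is therefore less certain. Sites were read in GENCODE M21 transcripts (mm10), from the longest 3′ UTR of at least 20 nt. Mature sequences of miR-140-5p and cel-miR-67 were not used here, and their sites were searched as motifs. The text names all members, up to 3 called genes per list and cell type with the smallest adjusted p (1 of them is not reported here), and the 3 genes most like each member.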

Additional observations from a re-analysis of the deposited data

Results flagged for a closer look

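The mix effect differed between astrocytes and BV-2 for 3 of the members, by a tested difference of log2 fold changes in the edgeR fit of all 18 libraries. Hmga1 differed by 1.19 (adjusted p = 2.89e-07), with 246 ± 9.76 TPM in the mix arm and 106 ± 2.21 TPM in the control arm of astrocytes, and 799 ± 17.7 TPM in the mix arm and 770.4 ± 13.8 TPM in the control arm of BV-2 (SD, n = 3 each). Hmga1b, which shares its reads with Hmga1 and is no independent case, differed by 1.23 (adjusted p = 1.34e-06). Hmga2 differed by 0.76 (adjusted p = 0.0028), at 2.71 ± 0.471 TPM in the mix arm and 2.05 ± 0.0746 TPM in the control arm of astrocytes, and 43.2 ± 0.769 TPM in the mix arm and 54.0 ± 2.94 TPM in the control arm of BV-2.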

How the results depend on the processing

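Over the alternatives, the calls of Hmga1 and Hmga1b in astrocytes and of Hmga2 in BV-2 were never lost. The count of members called in astrocytes, 4, was 2 with DESeq2, 2 with limma at either pseudocount and 2 to 4 without 1 library. In BV-2 it was 2, then 1 with limma at either pseudocount and 1 to 3 without 1 library. Fold changes near 0 changed sign. Igf2bp2 in astrocytes was 0.0014 in the fit of all 18 libraries, 0.051 with limma on log2(TPM + 1), 0.054 on log2(TPM + 0.1) and −0.032 to 0.012 without 1 library. Hmga1 in BV-2 was 0.052 and 0.053 with limma at the 2 pseudocounts and −0.039 to 0.022 without 1 library, and Hmga1b was 0.063 at both and −0.046 to 0.041. Genes called in Neuro-2A, 2083, were 3271 in the fit of all 18 libraries and 870 to 2268 without 1 library. Astrocytes had 7149, then 4535 in the fit of all 18 libraries. BV-2 had 1498, then 434 to 2985 without 1 library. The difference between astrocytes and BV-2 was called for 1432 genes, then 2764 with limma and 905 to 1808 without 1 library. With 7mer-A1 sites counted as well, 2 members rather than none held a miR-99b-3p site, against 6.95% of genes with a UTR. For cel-miR-67 it was 4 members rather than 3, against 15.7%, and the added one was Hmga2, at 2327 nt. Member counts for the other microRNAs stayed the same.

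With the replicate block, 6101 genes were called in Neuro-2A and 2644 for the difference between astrocytes and BV-2. In BV-2 the replicate block left 1 member called, and the adjusted p of Igf2bp2 was 0.066, while in the difference between cell types it was 0.035. The same-number correlations were 0.115, 0.0749 and 0.108 in astrocytes and 0.00793, 0.128 and −0.00514 in BV-2, so no pairing was taken there, although a number in the library descriptions also matches between arms and may mark shared cultures. Differently numbered astrocyte libraries correlated less, at −0.109 to 0.00047. With the block, the astrocyte coefficient of variation was 2.02%, against 3.52%, and 8218 genes were called, against 7149. The cause of these changes was not tested. Depth limits Hmga2 and Igf2bp3 in astrocytes, where they have 85.9 to 152 counts per library, and Igf2bp1 throughout.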
